A study of Oryza sativa Japonica Group with 4 samples.

Results

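The photoperiod flowering pathway of rice was followed through 10 genes, given by name and RAP identifier and chosen with earlier results of these data known, of the 37862 identifiers in the table of read counts. They are Hd1 (Os06g0275000), Ehd1 (Os10g0463400), Ehd2 (Os10g0419200), Ehd3 (Os08g0105000), Ghd7 (Os07g0261200), DTH8 (Os08g0174500), Hd3a (Os06g0157700), FD1 (Os09g0540800), IDD6 (Os08g0554400) and LF (Os05g0541400). The libraries came from pooled panicles 0.1 to 0.5 cm long of Oryza sativa japonica, cultivar TP309. WT plants (n = 2) were compared with OsbZIP47KD plants (n = 2), which carry a hairpin against the 3′ untranslated region of the bZIP factor gene OsbZIP47 behind the maize ubiquitin promoter. Line 14 is the source of both OsbZIP47KD libraries, so that line effects and knockdown effects cannot be told apart. The study is concerned with flowering time as well as panicle form, and the comparison asks whether transcripts of flowering time genes differed in their young panicles.

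In rice, a short-day plant, day length is read mainly in leaves. Hd1, a CONSTANS-like zinc finger protein, and Ehd1, a B-type response regulator, control the florigen gene Hd3a there. Ghd7, a CCT domain protein, and DTH8, a subunit of an NF-Y complex, repress Ehd1 in long days, while Ehd2 and Ehd3, a zinc finger protein of the INDETERMINATE DOMAIN (IDD) family and a PHD finger protein, promote it. Hd3a protein moves to the shoot apex and joins the bZIP factor FD1 through an adaptor protein in the florigen activation complex, which switches on MADS box genes of the inflorescence. IDD6 is a zinc finger factor of the same family as Ehd2, and LF is a helix-loop-helix protein that delays flowering. Levels of the leaf-acting members in a panicle are therefore levels outside the organ in which these genes are best known to act.

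The raw counts summed to 3839165 to 5611969 per library, so that 1 count was worth 0.189 to 0.261 CPM, the unit of level used here, which scales counts to library totals with TMM factors. OsbZIP47 itself had 471 and 261 counts in WT, and 1003 and 919 counts under the OsbZIP47KD label (log2 fold change 1.77, standard error 0.25, edgeR quasi-likelihood adjusted p = 0.0141). The hairpin holds part of this transcript, so the gene's count does not check the labels, and every direction below rests on them. Across the 25289 genes that edgeR's quasi-likelihood test could be run on, 0.649% were called (adjusted p below 0.05), with 0.127% called higher and 0.522% called lower. The authors call the libraries biological replicates, and whether each pool held separate plants is not given in the sources used here. In tissue pools, fewer cells of a type and less RNA per cell cannot be told apart.

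A total of 9 members had a count in at least 1 library and 7 had a count in all 4. The expression filter, about 2.18 CPM in at least 2 libraries, kept 6 members for testing (IDD6, Ehd3, FD1, Hd1, Ehd2 and LF), and 4 stayed under it (Ghd7, DTH8, Ehd1 and Hd3a). IDD6, Ehd3 and FD1 reached the filter level in every library. Hd1 reached it in both WT libraries and 1 OsbZIP47KD library. Ehd2 and LF reached it only in the OsbZIP47KD libraries and so had to be higher there to be tested at all. Levels are compared within a gene only, because transcript lengths were not used here.

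**Figure D1:**
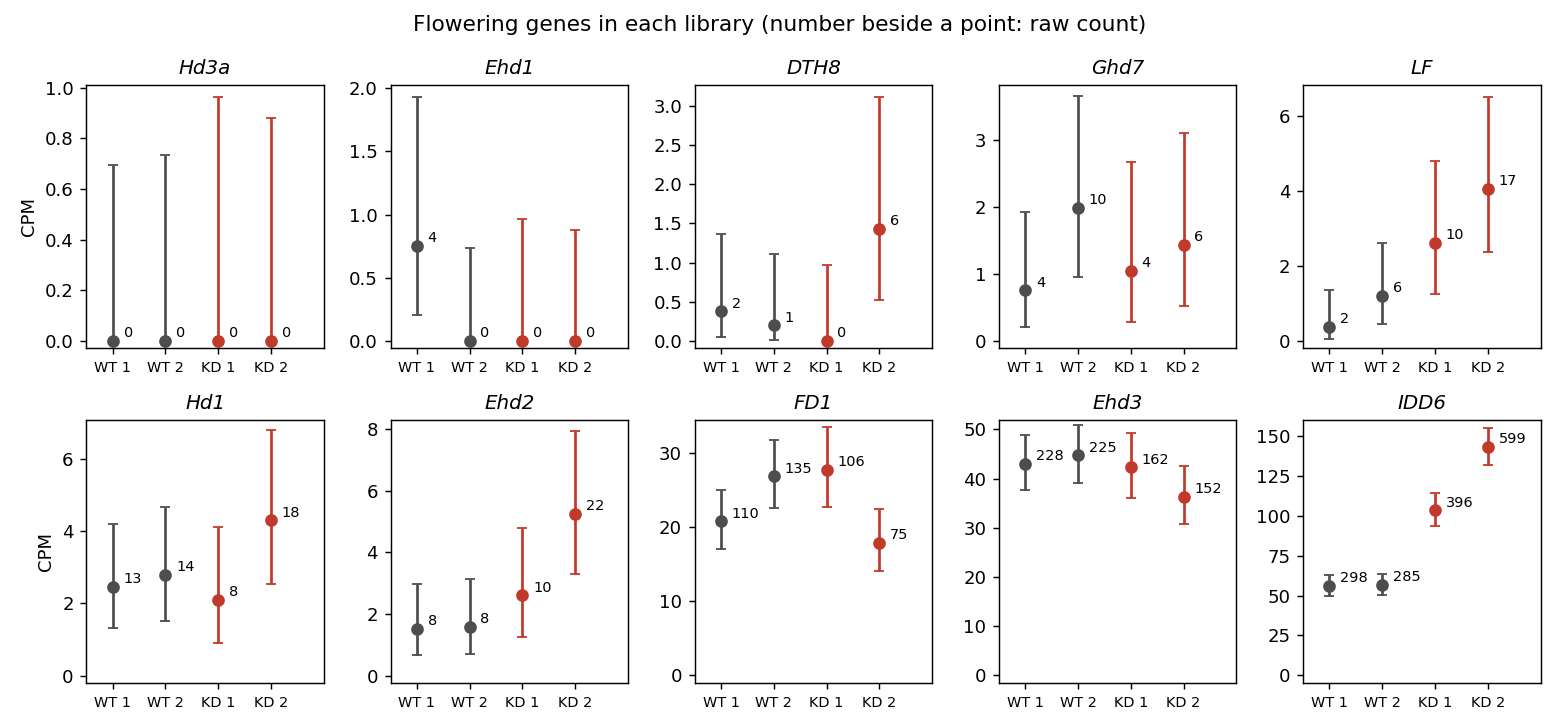
CPM of each member in the 2 WT (grey) and 2 OsbZIP47KD (red, labelled KD) libraries, with the raw count beside each point, bars for the 95% Poisson interval, which covers counting error only, and its own linear axis per gene. Both OsbZIP47KD points lie above both WT points for IDD6, Ehd2 and LF, and Hd3a is at 0 in every library.

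Hd3a, the florigen gene, had 0 counts in each WT library and 0 counts in each OsbZIP47KD library. With the limit set at 3 counts, a count of 0 allows up to 0.290 CPM over the WT libraries and up to 0.374 CPM over the OsbZIP47KD libraries. Hd3a was thus not detectable at this depth in either group, and no difference can be given.

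Ehd1, the activator of the florigen genes, had 4 counts in WT replicate 1 and 0 counts in the other 3 libraries. The pooled WT level was 0.387 CPM (95% Poisson interval 0.105 to 0.991). The OsbZIP47KD libraries allow up to 0.374 CPM by the limit of 3 counts, and up to 0.460 CPM by the 95% Poisson interval. A difference was thus not detectable at this depth, and the WT value itself comes from 1 library.

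Both repressors of Ehd1 gave few reads. Ghd7 had 4 and 10 counts in WT and 4 and 6 counts in OsbZIP47KD, and the groups overlapped. The pooled level of Ghd7 was 1.35 CPM (95% Poisson interval 0.740 to 2.27) in WT and 1.25 CPM (95% Poisson interval 0.598 to 2.29) in OsbZIP47KD, a ratio of 0.920 with a counting interval of 0.366 to 2.23. The log2 of this ratio was -0.69 without WT replicate 1 and 0.68 without WT replicate 2. DTH8 had 2 and 1 counts in WT and 0 and 6 counts in OsbZIP47KD. All OsbZIP47KD reads of DTH8 came from replicate 2, and the 2 replicates of that group lay on either side of WT. Its pooled ratio was 2.58, with a counting interval of 0.550 to 15.9.

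Hd1, which promotes flowering in short days and delays it in long days, had 2.45 and 2.78 CPM in WT and 2.09 and 4.29 CPM in OsbZIP47KD. One OsbZIP47KD library lay below both WT libraries and the other above them. The log2 fold change of Hd1 was 0.29 (standard error 0.78, 95% interval -1.41 to 1.99, edgeR quasi-likelihood adjusted p = 0.907), so that changes from 0.377-fold to 3.97-fold lie within the interval. It was -0.32 without OsbZIP47KD replicate 2. The counts of Hd1, 13 and 14 in WT and 8 and 18 in OsbZIP47KD, are also the counts of the next identifier before it, Os06g0274950, in all 4 libraries. Of 23983 neighbouring pairs whose first member had a summed count of at least 50, 73 pairs (0.304%) had the same count in every library. The reads of Hd1 and of Os06g0274950 therefore cannot be told apart in this table. No neighbour of the other 9 members had the same counts.

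Ehd2, the IDD zinc finger gene upstream of Ehd1, had 8 counts in each WT library and 10 and 22 counts in OsbZIP47KD. These are 1.51 and 1.59 CPM in WT and 2.61 and 5.25 CPM in OsbZIP47KD. Both OsbZIP47KD libraries lay above both WT libraries, and the WT libraries were closer to each other than the OsbZIP47KD libraries were. The log2 fold change of Ehd2 was 1.33 (standard error 0.82, 95% interval -0.44 to 3.11, edgeR quasi-likelihood adjusted p = 0.497), which did not pass. Leaving out OsbZIP47KD replicate 2 gave 0.74, and leaving out OsbZIP47KD replicate 1 gave 1.69.

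Ehd3, the PHD finger gene, rested on more reads, with 228 and 225 counts in WT and 162 and 152 counts in OsbZIP47KD. After scaling, Ehd3 stood at 43.0 and 44.7 CPM in WT and 42.3 and 36.3 CPM in OsbZIP47KD. Both OsbZIP47KD libraries were below both WT libraries, the nearer by less than the gap between the WT libraries. The log2 fold change was -0.16 (standard error 0.24, 95% interval -0.68 to 0.36, edgeR quasi-likelihood adjusted p = 0.820). On the linear scale the interval runs from 0.624-fold to 1.28-fold, and a 2-fold change of Ehd3 in either direction lies outside it.

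FD1, the bZIP partner of the florigen at the shoot apex, had 110 and 135 counts in WT and 106 and 75 counts in OsbZIP47KD. At 20.7 and 26.8 CPM in WT and 27.7 and 17.9 CPM in OsbZIP47KD, the highest and the lowest FD1 level were both in OsbZIP47KD. The 2 OsbZIP47KD libraries differed by more than counting error, with a ratio of replicate 2 to replicate 1 of 0.646 (95% counting interval 0.474 to 0.877). The log2 fold change of FD1 was -0.06 (standard error 0.32, 95% interval -0.76 to 0.64, edgeR quasi-likelihood adjusted p = 0.956). On the linear scale this interval runs from 0.589-fold to 1.56-fold. The sign of the FD1 value was not stable: it was 0.02 with upper quartile scaling, 0.01 with library size scaling, 0.09 without WT replicate 2 and 0.22 without OsbZIP47KD replicate 2.

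IDD6, a zinc finger gene of the family of Ehd2, rose in OsbZIP47KD. It had 298 and 285 counts in WT and 396 and 599 counts in OsbZIP47KD, in libraries of lower total count. In CPM the levels were 56.2 and 56.6 in WT and 103 and 143 in OsbZIP47KD. The groups did not overlap, and the WT libraries agreed within counting error, with a replicate ratio of 1.01 (95% counting interval 0.854 to 1.19). The OsbZIP47KD replicates differed by 1.38-fold (95% counting interval 1.22 to 1.57), and stood at 1.83 and 2.53 times the WT mean. The log2 fold change of IDD6 was 1.13 (standard error 0.21, 95% interval 0.66 to 1.59, edgeR quasi-likelihood adjusted p = 0.0411), or 2.18-fold with an interval of 1.58 to 3.02. The call was lost without OsbZIP47KD replicate 1 (log2 fold change 1.28, adjusted p = 0.0566 from the same test) and without OsbZIP47KD replicate 2 (log2 fold change 0.87, adjusted p = 0.216). Over all alternatives the adjusted p of IDD6 ran from 0.00186 to 0.216, and the value stayed above 0 in each. The study lists IDD6 among its higher genes on these same samples, so its direction here is not independent evidence.

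LF, the helix-loop-helix gene, had 2 and 6 counts in WT and 10 and 17 counts in OsbZIP47KD. The levels were 0.377 and 1.19 CPM in WT and 2.61 and 4.06 CPM in OsbZIP47KD, and the groups did not overlap. The log2 fold change of LF was 2.06 (standard error 0.96, 95% interval -0.02 to 4.15, edgeR quasi-likelihood adjusted p = 0.359), and the unadjusted p was 0.0520, so that LF passed neither threshold. Its unadjusted p was 0.0280 with edgeR's exact test, 0.0447 with upper quartile scaling and 0.0461 with library size scaling, all 3 with adjusted p of 0.271 or more. In pooled counts the ratio was 4.35, with an interval of 1.92 to 11.1 that leaves out the spread between libraries. The value was 1.44 when WT replicate 1 was left out and close to 3 when WT replicate 2, with 6 of the 8 WT reads, was left out. The study lists LF among its higher genes too, on the same samples.

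**Figure D2:**
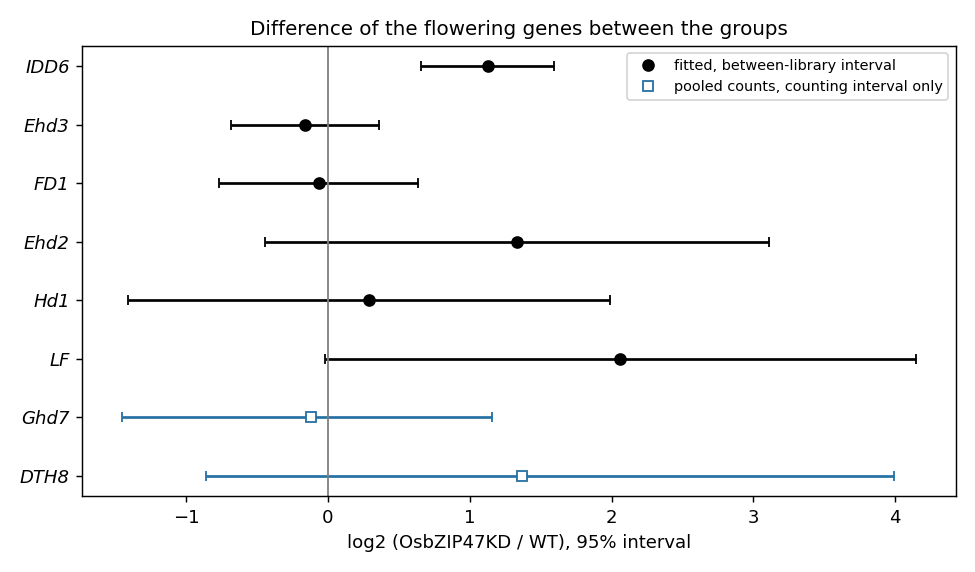
Log2 ratio of OsbZIP47KD to WT for the 8 members with reads in both groups, with 95% intervals; filled circles come from the fit across all genes and open squares from pooled counts, whose intervals cover counting error only. The interval of IDD6 lies above 0, and those of the other 7 members cross 0.

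With edgeR's quasi-likelihood test, 1 of 6 tested members was called higher (IDD6) and 0 were called lower, against 0.127% and 0.522% of all genes tested. At an unadjusted p under 0.05 the count was also 1 of 6, against 14.1% of all genes, and DESeq2, edgeR's exact test and limma called no member lower either. The study's own cut-off asks for a 1-unit log2 difference and an unadjusted p no larger than 0.05. By it, 1 member was higher and 0 were lower, against 4.62% and 2.5% of all genes and 7.12% in both directions together. With the exact test, upper quartile scaling or library size scaling, LF met this cut-off too, which makes 2 members. The OsbZIP47KD libraries did not overlap WT in 4 members, of which 3 were higher (IDD6, Ehd2 and LF) and 1 lower (Ehd3), against 45.9% of all genes tested, 23.0% higher and 22.8% lower. Of the 3, Ehd2 and LF could enter the test only by being high in OsbZIP47KD, so this count is no result about the members. The median log2 fold change of the 6 tested members was 0.71, beside 0.02 over all genes tested, with the same limit.

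**Figure D3:**
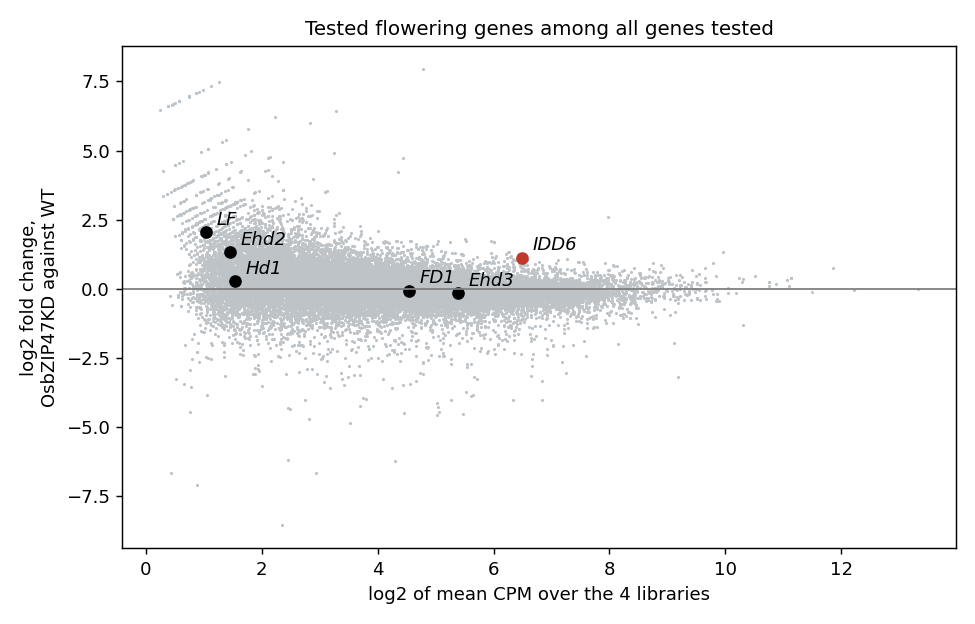
Log2 fold change against the log2 of mean CPM for all genes tested (grey points), with the 6 tested members marked (IDD6 in red, the others in black). IDD6, at a log2 fold change of 1.13, stands at a higher mean level than LF, at 2.06, which lies among genes of low level, where the grey points spread most widely.

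The OsbZIP47KD replicates did not move alike. Of 8 members with a read in an OsbZIP47KD library, 6 (IDD6, LF, Hd1, Ehd2, Ghd7 and DTH8) were higher in replicate 2 than in replicate 1, while Ehd3 and FD1 were lower. Among these 8, the counting interval of the ratio of replicate 2 to replicate 1 left out 1 only for IDD6, FD1 and DTH8. Over all genes tested, 51.1% were higher in replicate 2. Leaving out OsbZIP47KD replicate 2 turned the sign of Hd1 and of FD1, and lowered the values of Ehd2, IDD6 and LF. In such fits the lone library left in a group is taken to vary as the other group does.

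**Figure D4:**
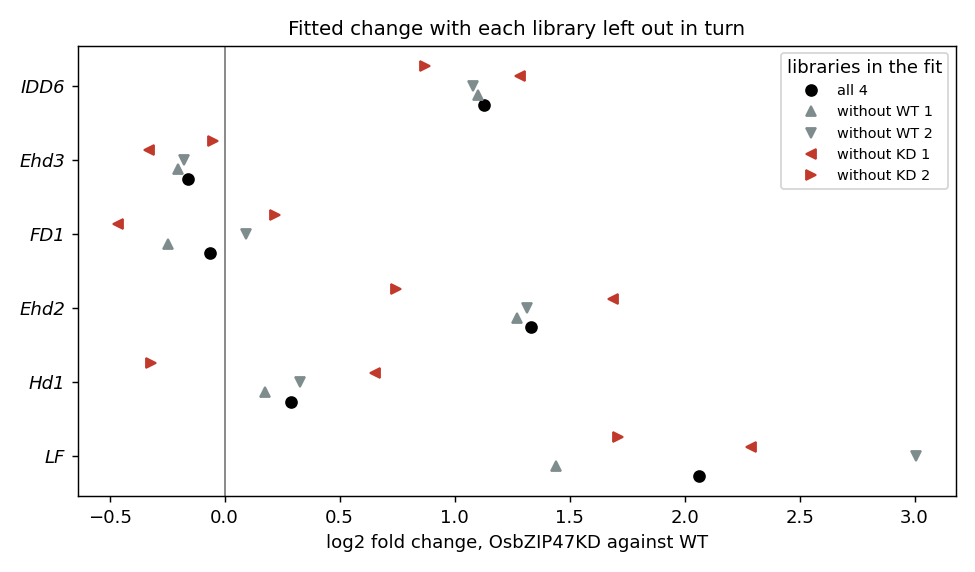
Log2 fold change of the 6 tested members with all 4 libraries (black circles) and with 1 library left out (grey triangles, WT; red triangles, OsbZIP47KD, labelled KD). IDD6 stays between 0.87 and 1.28, whereas Hd1 and FD1 lie on both sides of 0.

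The study lists 3 further IDD genes and OsLBD38 as higher on these same samples. OsIDD3 stood at 13.2 and 18.1 CPM in WT and 35.5 and 56.5 CPM in OsbZIP47KD (log2 fold change 1.56, standard error 0.32, edgeR quasi-likelihood adjusted p = 0.0515). OsIDD13 stood at 19.2 and 27.6 CPM in WT and 38.6 and 76.1 CPM in OsbZIP47KD, and OsIDD12 at 10.6 and 10.9 CPM in WT and 23.0 and 21.2 CPM in OsbZIP47KD. Like IDD6, OsIDD3 and OsIDD13 were higher in OsbZIP47KD replicate 2 than in replicate 1, and OsIDD12 was not. OsLBD38, a LATERAL ORGAN BOUNDARIES domain gene, had 5 and 5 counts in WT and 16 and 22 counts in OsbZIP47KD. None of these 4 genes passed the adjusted threshold, although each met the study's criterion, by which the study had chosen them.

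From the same list of 9 flowering, clock and IDD genes named by the study, edgeR's quasi-likelihood test called 3 lower and 0 higher after adjustment, while 6 were higher at an unadjusted p under 0.05. OsFKF1, related to a blue light receptor of Arabidopsis that releases the photoperiod pathway, fell from 104 and 95.6 CPM in WT to 45.2 and 51.3 CPM in OsbZIP47KD (log2 fold change -1.05, standard error 0.20, edgeR quasi-likelihood adjusted p = 0.0433). The clock genes OsLHY (log2 fold change -2.43, edgeR quasi-likelihood adjusted p = 0.00518) and OsPRR95 (log2 fold change -2.66, edgeR quasi-likelihood adjusted p = 5.62e-05) fell as well. The time of day at which panicles were collected is not given in the sources used here, and clock genes cycle with it. The paper's methods give no day length for the plants either. The part of time of day and day length in the values of the members was not tested. The study chose all 9 genes on these samples, so their directions are no independent evidence.

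Identifiers of the wider pathway that the study did not choose were taken from general knowledge, and since no table used here pairs them with names they are counted and not named. Of 17 identifiers taken as regulators upstream of the florigens, all were tested. With edgeR's quasi-likelihood test 0 rose and 0 fell after adjustment, and 3 were lower and 0 higher at an unadjusted p under 0.05, a share near the 14.1% of all genes. Their median log2 fold change was -0.07, within a range of -0.57 to 0.47. Of 9 identifiers taken as florigens and their protein partners, 5 were tested and none passed, also at an unadjusted p under 0.05, and the median of these 5 was -0.26. Pooled ratios are given for 3 of those under the filter, and the values of 1 further identifier are not reported here. Os08g0549600 had 0 and 4 counts in WT and 2 and 18 counts in OsbZIP47KD, a pooled ratio of 6.44 with a counting interval of 2.16 to 25.9, and most of its reads came from OsbZIP47KD replicate 2. Os06g0720900, with 2 WT reads in all, had the same ratio with an interval of 1.37 to 60.5, and Os04g0411400 a ratio of 1.68 with an interval of 0.679 to 4.27. These intervals leave out the spread between libraries. Among 4 identifiers taken as MADS box targets of the florigen complex, the summed level was 618 and 594 CPM in WT, 560 CPM in OsbZIP47KD replicate 1 and 240 CPM in replicate 2. Each of the 4 had a log2 fold change below 0, from -0.98 to -0.26, and none passed, also at an unadjusted p under 0.05. The low sum was that of a single library, OsbZIP47KD replicate 2.

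Leaf tissue was gauged by 13 identifiers taken as photosynthesis genes, because most members act in leaves. None of the 13 was at 0 in any library, 12 had at least 10 counts in all 4, and their summed level was 388 and 465 CPM in WT and 264 and 370 CPM in OsbZIP47KD. By edgeR's quasi-likelihood test 1 fell after adjustment, CAB1R, a chlorophyll-binding protein of the light harvesting complex, from 55.2 and 46.3 CPM in WT to 9.66 and 9.54 CPM in OsbZIP47KD, and the median log2 fold change of the 13 was 0.21. At an unadjusted p under 0.05, 3 of the 13 were lower and 1 was higher, against 14.1% of all genes in either direction. CAB2R, another chlorophyll-binding protein gene, was 1 of these 3. It stood at 81.2 and 145 CPM in WT and 38.6 and 57.7 CPM in OsbZIP47KD (log2 fold change -1.23, edgeR quasi-likelihood adjusted p = 0.121). The 1 higher was Os11g0707000, at 13.9 and 12.5 CPM in WT and 20.9 and 29.6 CPM in OsbZIP47KD. Its log2 fold change was 0.93 (edgeR quasi-likelihood adjusted p = 0.23). Taken by sign alone, 7 of the 13 rose in OsbZIP47KD and 6 fell. The lower sum in OsbZIP47KD is therefore not the direction of most of the list. Transcripts of photosynthesis genes were thus present in libraries in which Hd3a had no read. Of 8 identifiers taken as markers of panicle meristems and spikelets, each with reads in every library, the summed level was 325 and 275 CPM in WT and 354 and 341 CPM in OsbZIP47KD, and 0 of 7 tested passed the adjusted threshold by edgeR's quasi-likelihood test. At an unadjusted p under 0.05, 1 of these 7 was higher and 0 were lower, a share near the 14.1% of all genes in either direction. It was APO1, an F-box gene of panicle branching, at 8.29 and 12.9 CPM in WT and 24.0 and 35.3 CPM in OsbZIP47KD. The study reports APO1 as higher on these same samples, so its direction here is not independent evidence. The part of tissue makeup in the values of the members was not tested.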

How the data were processed

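RNA was measured in 4 libraries of young rice panicles, grouped by the submitters' labels into WT (n = 2) and OsbZIP47KD (n = 2). Per the paper's methods, the authors depleted ribosomal RNA, sequenced paired reads, aligned them with STAR v2.5.3a to the RAP-DB genome and deposited raw read counts per RAP identifier; the submitters' notes give edgeR v3.82.0, and the paper's methods name a different edgeR version. The counting program, its strand setting and the annotation version are not given in the sources used here, so reads of overlapping or antisense genes cannot be told apart. The deposited normalized table holds a score, a whole number that lies within 0.913 of the count times 1 factor per library, for 29532 of 37862 identifiers, and was used only in 1 alternative.

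Raw counts were analysed in R v4.3.3 with edgeR v4.0.16. Genes were kept by filterByExpr (minimum count 10, minimum total 15), scaled by TMM and compared with the robust quasi-likelihood test, with Benjamini-Hochberg adjustment over all 25289 genes tested. Genes with an adjusted p below 0.05 count as called. Standard errors are the log2 fold change over the square root of F, and 95% intervals use the t distribution with the degrees of freedom of the fit. For members under the filter, the ratio of the summed counts of the groups carries an exact (Clopper-Pearson) 95% interval; levels of single libraries and groups carry exact Poisson intervals. The limit that a count of 0 allows was set at 3 counts. Intervals and limits from counts cover counting error only. The fit was tested on simulated data.

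The 10 members are all named; of the other lists, called members, members past the study's criterion and those with the smallest p could be named, but only where the paper's supplement pairs the identifier with a name. Other members of the lists are counted. The values of 1 further gene are not reported here. The members and lists were chosen with earlier results of these data known. The 14 alternatives changed the scaling (RLE, upper quartile, library size), the filter (none, or at least 1 CPM in 2 libraries), the tool (edgeR's exact test, DESeq2 v1.42.0, and limma v3.58.1 on the deposited score plus 1), added the replicate number as a block, dropped the 20 genes of highest abundance, or dropped 1 library at a time. No genome, promoter or protein sequence was used here.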

Additional observations from a re-analysis of the deposited data

How the results depend on the processing

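Over 14 alternatives, IDD6 was called higher in 12 and no other member was called in any; the count of members higher ran from 0 to 1 with 1 library left out, and the count lower was 0 in all 14. With 1 library left out, log2 fold changes ran from -0.32 to 0.65 for Hd1, from 0.74 to 1.69 for Ehd2, from -0.33 to -0.05 for Ehd3, from -0.46 to 0.22 for FD1, from 0.87 to 1.28 for IDD6 and from 1.44 to 3.005 for LF. FD1 was at 0.0245 with upper quartile and 0.00962 with library size scaling; these scalings moved the median of all genes to 0.11 and 0.10 from 0.02. Over the other lists together, 0 identifiers were higher and 4 lower, against 0.127% and 0.522% of all genes tested. Of the 4, 3 (OsFKF1, OsLHY and OsPRR95) are from the list that the study chose on these samples, and 1 is CAB1R. The count is therefore mostly made of genes selected on these data. The number higher was 1 with upper quartile scaling, library size scaling, DESeq2 and limma, 3 with no filter, the exact test and the replicate block, and 0 to 4 with 1 library left out, when the number lower ran from 3 to 5. The number lower was 3 with upper quartile and library size scaling, 5 with DESeq2, the exact test and the replicate block, and 6 with no filter. The cause of these shifts was not tested. Without a filter, Ehd1, Ghd7 and DTH8 had edgeR quasi-likelihood adjusted p of 0.683, 0.977 and 0.872.

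Same-numbered libraries are not stated to be paired. The correlation of their deviations was 0.04 over 25289 genes, but with 2 libraries per group it cannot show whether they were. With the replicate block IDD6 stood at 1.11 (edgeR quasi-likelihood adjusted p = 0.00620), and 186 genes were called higher and 410 lower over all genes. Over all genes, 32 higher and 132 lower calls became 21 to 382 and 49 to 850 over the alternatives, and the share of calls that were higher, 19.5%, ran from 15.7% to 44.6%. Depth limits Hd3a, Ehd1, DTH8 and Ghd7, whose reads could show only large changes, and low counts also limit Hd1, Ehd2 and LF, whose replicate ratios all had counting intervals that include 1.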
